A study of Rattus norvegicus with 7 samples.

Results

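The genes for 10 serotonin receptors (Htr1a, Htr1b, Htr1d, Htr1f, Htr2a, Htr2c, Htr3a, Htr4, Htr5a and Htr7) were examined in rat hippocampus and hypothalamus. They were taken by gene symbol from 15892 symbols listed for both tissues, all 10 were found in both, and where a symbol had several loci the one with the highest mean was used. The values came from RNA sequencing of 7 libraries, 4 of hippocampus and 3 of hypothalamus. The libraries were from male rats of the outbred Sprague Dawley strain, 2 months old when assigned, whose food held DHA (docosahexaenoic acid, a fatty acid of the omega-3 series) for 6 weeks before the tissues were dissected and frozen. Both groups had thus received DHA, and chow-fed rats are not analysed here. The values therefore describe the 2 tissues under this diet and say nothing of its effect. Whether same-numbered libraries of the 2 tissues came from the same animal is not given in the labels.

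Serotonin is released by neurons whose cell bodies lie in the raphe nuclei of the brainstem, and it reaches both tissues through their axons. Receptors of the Htr1 and Htr5 families couple to inhibitory G proteins that lower cAMP, those of the Htr2 family to G proteins that activate phospholipase C, and those encoded by Htr4, Htr6 and Htr7 to the G protein that stimulates adenylate cyclase. The product of Htr3a forms a ligand-gated cation channel instead. In hippocampus serotonin acts on pyramidal cells and interneurons, and in hypothalamus it takes part in the control of feeding, hormone release and daily rhythm.

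Levels are given in FPKM, fragments scaled to transcript length and to library size, as deposited. Tissues were compared after rescaling, which set the shared symbols of each library to total 1000000, on the scale log2(rescaled value + 1), with the pooled SD among replicates beside each difference. A gene was called higher in a tissue when all libraries of that tissue lay above all of the other and the mean difference was at least 2-fold on that scale. Each tissue has its own table, so tissue and table cannot be told apart, and no test was made across them. Deposited FPKM summed to 370020 to 391349 over the hippocampus libraries and to 443335 to 471484 over the hypothalamus libraries. Replicate 1 of each tissue stood apart from the others: Pearson r of log2(FPKM + 1) across all loci was 0.927 to 0.960 for pairs with a replicate 1 and 0.977 to 0.987 for the remaining pairs. The summed level of 7 hippocampus markers was 999.7 to 1431 FPKM in the hippocampus libraries and 24.7 to 35.4 FPKM in those of hypothalamus. Of these, Slc17a7, a vesicular glutamate transporter gene, read 571 to 847 FPKM in hippocampus against 0.150 to 0.985 FPKM in hypothalamus. The summed level of 10 hypothalamus markers was 5735 to 8179 FPKM in the hypothalamus libraries and 5.09 to 11.9 FPKM in those of hippocampus. Of these, Avp, the vasopressin gene, read 2818 to 3712 FPKM in hypothalamus against 0 to 2.07 FPKM in hippocampus.

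Htr2c was the most abundant of the 10 receptors in both tissues, and the receptors below it came in a different order in each. Htr1a and Htr4 were called higher in hippocampus, and Htr1d, which reached 1 FPKM only in hypothalamus, was called higher there. Htr3a, Htr5a and Htr7 were higher in every hypothalamus library but by less than 2-fold on the log2(rescaled value + 1) scale. Htr1b, Htr2a and Htr2c overlapped between the tissues, although Htr1b no longer did once its loci were summed. In bulk tissue, fewer cells of a type and less RNA per cell cannot be told apart.

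For 9 of the 10 receptors the mean reached 1 FPKM in hippocampus or hypothalamus, and for Htr1f it did not. Htr1d passed this minimum only through hypothalamus, the tissue where it was high, so its place among the 9 is not independent of its difference. Among these 9, 2 were called higher in hippocampus, where 14.5% of 10736 compared symbols were, and 1 was called higher in hypothalamus, where 13.4% were. Without the 2-fold requirement, 2 of the 9 did not overlap and were higher in hippocampus (28.2% of all compared symbols) and 4 were higher in hypothalamus (24.4%), together 6 of 9 where 52.6% of all symbols did not overlap. The share of 3 called among 9 receptors lay near the 27.9% of all symbols called in either direction. The median difference of the 9 was −0.01 on the log2 scale, beside 0.05 over all compared symbols. With FPKM as deposited the median of all symbols moved to −0.21, and 1 receptor, Htr1a, stayed called. Without hypothalamus replicate 1, 4 receptors were called higher in hippocampus and 1 in hypothalamus, beside 32.0% of all compared symbols called in either direction.

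**Figure D1:**
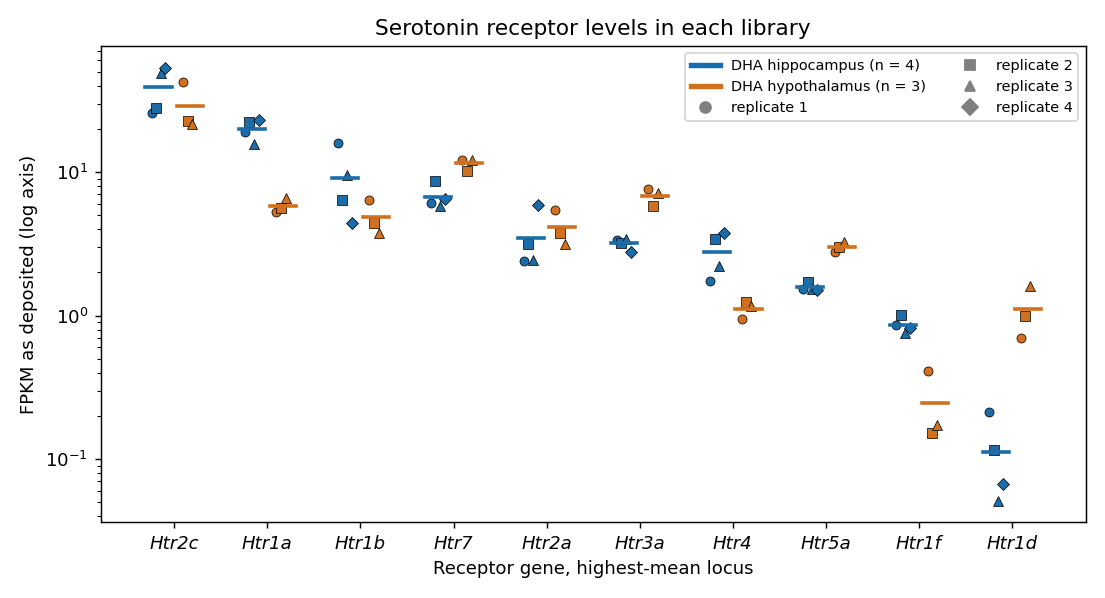
FPKM as deposited (log axis) of the 10 receptor genes, ordered by their mean in hippocampus, with 1 point per library, a shape per replicate number and a bar at each tissue's mean. The groups do not overlap for Htr1a, Htr4 and Htr1f (hippocampus higher) nor for Htr7, Htr3a, Htr5a and Htr1d (hypothalamus higher).

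The mean FPKM ran from 39.1 for Htr2c to 0.112 for Htr1d in hippocampus and from 28.8 for Htr2c to 0.247 for Htr1f in hypothalamus. In hippocampus, Htr2c lay above Htr1a in all 4 libraries with no overlap between their ranges. Htr1a, Htr1b and Htr7 followed, and each of these overlapped in range with the next. Htr2a, Htr3a and Htr4, at means of 3.48, 3.19 and 2.79 FPKM, were not separated by their spread. Htr5a, Htr1f and Htr1d came last, each below its predecessor without overlap. In hypothalamus, Htr2c and Htr7 were the first 2 in the order and did not overlap with each other or with Htr3a. Htr3a, Htr1a, Htr1b, Htr2a and Htr5a followed, with each neighbour in that order overlapping in range. Htr4 and Htr1d, at means of 1.12 and 1.11 FPKM, overlapped as well and lay above Htr1f. Among all symbols of its table, Htr2c exceeded 88.3% in hippocampus and 82.1% in hypothalamus, whereas Htr1d in hippocampus exceeded 26.5%.

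**Figure D2:**
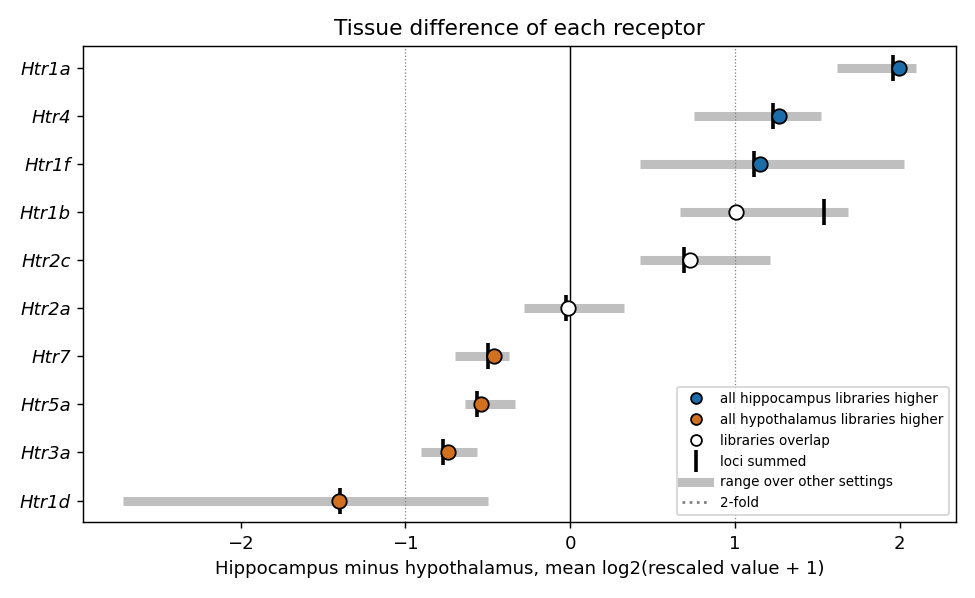
Hippocampus minus hypothalamus difference in mean log2(rescaled value + 1) for each receptor (circle), with the value for summed loci (black tick), the range over 17 other settings (grey bar) and 2-fold marked by dotted lines. Htr1a lies beyond 2-fold over the whole bar, and the bar of Htr2a crosses 0.

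Among those of the 10 receptors that couple to inhibitory G proteins, Htr1a, which encodes both the autoreceptor on serotonin neurons and a receptor on hippocampal pyramidal cells, differed most between the tissues on the log2(rescaled value + 1) scale. Its 4 hippocampus libraries read 19.1, 22.3, 15.8 and 23.2 FPKM, and its 3 hypothalamus libraries read 5.30, 5.62 and 6.58 FPKM. Every hippocampus library lay above every hypothalamus library. The rescaled mean was 4.24 times as high in hippocampus, a difference of 2.00 with a pooled SD of 0.19 on the log2 scale. It stayed called in each of the 17 other settings, between 1.62 and 2.10.

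Htr1b encodes a receptor found largely on axon terminals, where it reduces transmitter release. It had 2 loci in each table. The higher hippocampal locus, XLOC_027592, read 15.9, 6.35, 9.53 and 4.40 FPKM in replicates 1 to 4, and the other, XLOC_026937, read 0.237, 10.1, 9.94 and 14.8 FPKM. Replicate 1 had nearly all of its Htr1b signal at the first locus, while the other libraries divided it between both. In hypothalamus the loci read 6.42, 4.40 and 3.78 FPKM and 0.0534, 3.54 and 2.97 FPKM, with replicate 1 again almost wholly at one of them. Of the 20 nearest single-locus symbols in the table on the same chromosome, 20 lay on the RefSeq strand of Htr1b at the higher locus and 0 at the other, in both tissues. Whether reads were assigned by strand is not given in the sources used here, and the part of strand in this split was not tested.

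**Figure D3:**
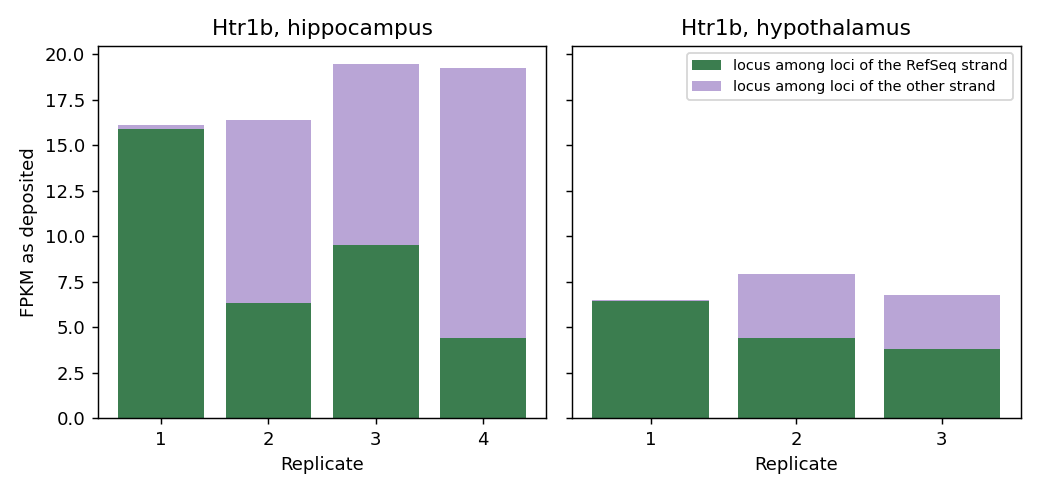
FPKM as deposited at the 2 loci of Htr1b in each library, stacked, with the locus that lies among loci of the RefSeq strand in green and the other in purple. The stacked totals stay between 16.1 and 19.5 FPKM in hippocampus and between 6.48 and 7.94 FPKM in hypothalamus, while the division differs between replicate 1 and the rest.

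With both loci summed, Htr1b read 16.1, 16.4, 19.5 and 19.2 FPKM in hippocampus, and in hypothalamus it read 6.48, 7.94 and 6.75 FPKM. The groups no longer overlapped, and the SD in hippocampus was 1.79 FPKM in place of 5.03 FPKM for the higher locus alone. The summed difference was 1.54 with a pooled SD of 0.15 on the log2 scale, a rescaled mean 3.02 times as high in hippocampus. At the higher locus alone it was 1.003 with a pooled SD of 0.65. The higher locus was also called without replicate 4 of hippocampus (1.28) and without replicate 1 of hypothalamus (1.22). Without replicate 1 of hippocampus the other hippocampal locus became the higher, so that the called value of 1.47 set loci from opposite strand neighbourhoods against each other. By summed means Htr1b came after Htr2c and Htr1a in hippocampus, where it averaged 17.8 FPKM beside 20.1 FPKM for Htr1a and overlapped with it, and after Htr2c and Htr7 in hypothalamus.

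Htr1d, which encodes another receptor of axon terminals, was the least abundant of the 10 in hippocampus. It read 0.213, 0.116, 0.0515 and 0.0676 FPKM there and 0.702, 0.995 and 1.62 FPKM in hypothalamus. The groups did not overlap, and the FPKM mean was 9.87 times as high in hypothalamus. On the log2 scale the difference was −1.41 with a pooled SD of 0.31, and at these levels it depended on the pseudocount and the scale of the values: −2.71 with a pseudocount of 0.1, −0.50 with 5, −0.90 with FPKM as deposited, −0.85 with upper-quartile scaling and −0.81 with median-ratio scaling. The last 4 of these were under 2-fold on their log2 scale, and with a minimum of 5 FPKM Htr1d was not compared. Without hypothalamus replicate 3 the mean fell under 1 FPKM in both tissues, so that Htr1d left the compared symbols, with a difference of −1.20. Htr1f, whose product is bound by antimigraine drugs, read 0.857, 1.005, 0.752 and 0.819 FPKM in hippocampus, and in hypothalamus it read 0.414, 0.153 and 0.173 FPKM. All hippocampus libraries were higher, by 3.48 times in FPKM, but the gene did not pass the minimum of 1 FPKM and is given as a description.

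RefSeq sequences of the 250 bases before the gene start were found for 6 of the 10 receptors (assembly GRCr8). Those of Htr1b and Htr1d, receptors of the same family, are shown because Htr1d was higher in hypothalamus and Htr1b in hippocampus with its loci summed, although the higher Htr1b locus alone overlapped. Letters in capitals mark matches on either strand to any of 4 motifs, none of which contains another. These are GGGCGG for the GC box, CCAAT for the box of that name, TATAAA for the TATA box and TGACGTCA for the cAMP response element.
Htr1b, chr8:91414816-91415065, minus strand: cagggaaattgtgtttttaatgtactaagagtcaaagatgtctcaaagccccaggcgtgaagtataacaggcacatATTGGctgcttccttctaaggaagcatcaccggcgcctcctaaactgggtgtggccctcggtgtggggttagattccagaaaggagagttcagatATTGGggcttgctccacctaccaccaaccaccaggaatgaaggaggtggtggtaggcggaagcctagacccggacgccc
Htr1d, chr5:153939485-153939734, plus strand: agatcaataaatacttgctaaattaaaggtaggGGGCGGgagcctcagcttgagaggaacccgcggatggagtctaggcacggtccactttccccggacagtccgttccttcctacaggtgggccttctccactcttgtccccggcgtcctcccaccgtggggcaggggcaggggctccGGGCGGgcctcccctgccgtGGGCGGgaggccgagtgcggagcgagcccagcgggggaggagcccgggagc
Htr1d held 3 GC boxes and no CCAAT box at a GC content of 66.8%, and Htr1b held 2 CCAAT boxes and no GC box at 52.4%. Of 33469 windows of the same length, 30.5% held a GC box, 34.0% a CCAAT box, 12.9% a TATA box and 1.59% a cAMP response element, and the median GC content was 51.2%. These matches describe the sequence and were not tied to the measured levels.

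Htr5a, whose product also couples to inhibitory G proteins, varied least among replicates. It read 1.54, 1.73, 1.54 and 1.4965 FPKM in hippocampus, and in hypothalamus it read 2.76, 3.02 and 3.27 FPKM. The groups did not overlap, and the FPKM mean was 1.91 times as high in hypothalamus. After rescaling, the difference was −0.54 with a pooled SD of 0.07 on the log2 scale, and hypothalamus stayed above hippocampus without overlap in all 17 other settings.

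In the Htr2 family, Htr2c encodes a receptor that in hypothalamus restrains feeding through melanocortin neurons and that is also abundant in choroid plexus, the tissue that secretes cerebrospinal fluid. Htr2c read 25.7, 28.2, 49.1 and 53.4 FPKM in hippocampus, and in hypothalamus it read 42.1, 22.8 and 21.5 FPKM. The groups overlapped, since hypothalamus replicate 1 lay between hippocampus replicates 2 and 3. The difference was 0.73 with a pooled SD of 0.55 on the log2 scale and was not called. Without hypothalamus replicate 1 the tissues separated and the difference became 1.04, which was called. In hypothalamus replicate 1 the summed level of 6 thalamus and habenula markers was also the highest, at 73.2 FPKM against 41.9 and 34.8 FPKM in replicates 2 and 3, and none was at 0 throughout a tissue. Their part in the Htr2c values was not tested.

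Choroid plexus markers differed between the hippocampus libraries. Over 9 measured genes, the mean log2(FPKM + 1) was 4.51, 0.96, 5.25 and 4.44 in replicates 1 to 4, and 1.71, 1.88 and 1.44 in the hypothalamus libraries. The summed level of these genes ran from 35.4 to 6029 FPKM in hippocampus and from 35.5 to 73.7 FPKM in hypothalamus, and Otx2 was listed at 0 in every library. Ttr, the transthyretin gene, was the most abundant, at 4651, 31.9, 5771 and 1967 FPKM in hippocampus. Replicate 2, with the lowest choroid plexus level, read 28.2 FPKM for Htr2c, above the 25.7 FPKM of replicate 1, where that level was 4.51. Replicates 3 and 4, also high in the markers, had the highest Htr2c. The part of choroid plexus in the Htr2c values of replicates 3 and 4 was not tested.

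**Figure D4:**
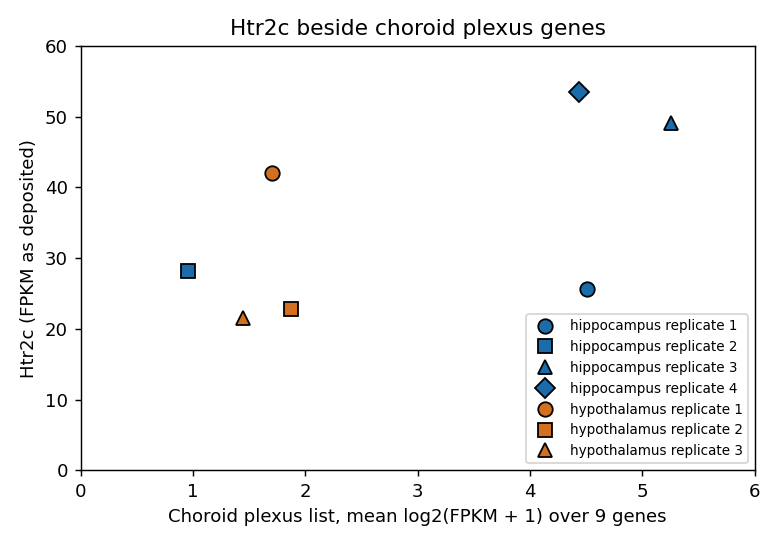
Htr2c in FPKM as deposited (vertical axis) against the mean log2(FPKM + 1) of 9 choroid plexus genes (horizontal axis), 1 point per library. Hippocampus replicates 1, 3 and 4 share a high choroid plexus level but read 25.7, 49.1 and 53.4 FPKM for Htr2c.

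The RefSeq span of Htr2c on chromosome X holds 5 microRNA genes on its own strand. Of these, Mir3552, Mir764, Mir1912 and Mir448 have a row in each table and were listed at 0 in all 7 libraries, while the host gene read 21.5 FPKM or more in each. Rows of microRNA genes at 0 were common, 331 of 380 in hippocampus and 318 of 363 in hypothalamus, in libraries made from poly-A RNA cut to fragments. For each of these 4 genes 1 mature sequence is shown, the 3p arm where RefSeq lists both, as a sequence embedded in the most abundant receptor gene, with the seed (bases 2 to 8) in capitals. No seed is shared among those shown.
rno-miR-3552: aGGCUGCAggcccacuucccu
rno-miR-764-3p: gAGGAGGCcauaguggcaacugu
rno-miR-1912-3p: cACAGAACaugcagugaga
rno-miR-448-3p: uUGCAUAUguaggauguccca
Htr2c itself begins behind the following 250 bases, which held 1 CCAAT box and none of the other motifs at a GC content of 50.4%.
Htr2c, chrX:115452940-115453189, plus strand: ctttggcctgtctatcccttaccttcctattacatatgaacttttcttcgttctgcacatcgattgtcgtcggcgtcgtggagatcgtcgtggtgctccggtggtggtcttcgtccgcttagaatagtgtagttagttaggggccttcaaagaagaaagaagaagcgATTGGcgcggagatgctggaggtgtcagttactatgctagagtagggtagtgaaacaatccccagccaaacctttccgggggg

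Htr2a, which encodes the receptor on which classic psychedelic drugs act, read 2.40, 3.14, 2.43 and 5.94 FPKM in hippocampus, and in hypothalamus it read 5.45, 3.76 and 3.17 FPKM. Hippocampus replicate 4 and hypothalamus replicate 1 were the high libraries, and the groups overlapped. The difference was −0.01 with a pooled SD of 0.49 on the log2 scale, and its sign was the same in 11 of 17 other settings. A second hippocampal locus of Htr2a read at most 0.0771 FPKM.

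Htr3a, the subunit gene of the serotonin-gated cation channel, read 3.34, 3.20, 3.44 and 2.77 FPKM in hippocampus, and in hypothalamus it read 7.64, 5.79 and 7.15 FPKM. The groups did not overlap, and the FPKM mean was 2.15 times as high in hypothalamus. After rescaling the difference was −0.74 with a pooled SD of 0.16 on the log2 scale, under 2-fold in all 17 other settings (−0.90 to −0.57). In forebrain, Htr3a is known from interneurons of caudal origin. Of 6 measured markers of those interneurons, 4 were called higher in hippocampus, where 14.5% of all compared symbols were, and none in hypothalamus. After rescaling, Vip was higher in every hippocampus library by less than 2-fold, and Sp8 overlapped. Cck, the cholecystokinin gene and the most abundant of them, read 186 to 457 FPKM in hippocampus, and in hypothalamus it read 52.4 to 153 FPKM. Their summed level was 316 to 568 FPKM in hippocampus, and in hypothalamus it read 93.4 to 203 FPKM, and none was at 0 in all libraries of a tissue. The part of these cells in the Htr3a difference was not tested.

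Of the receptors that stimulate adenylate cyclase, Htr4 and Htr7 lay on opposite sides. Htr4, a receptor gene of hippocampal granule and pyramidal cells, read 1.75, 3.42, 2.21 and 3.79 FPKM in hippocampus, and in hypothalamus it read 0.943, 1.24 and 1.18 FPKM. Every hippocampus library was higher, although their own spread was wide. The rescaled mean was 3.05 times as high in hippocampus, a difference of 1.27 with a pooled SD of 0.36 on the log2 scale. With FPKM as deposited the difference was 0.80, with upper-quartile scaling 0.90, with median-ratio scaling 0.95 and with a pseudocount of 5 it was 0.75, all of them under 2-fold on that log2 scale, although the ratio of the FPKM means without a pseudocount was 2.49. With a minimum of 5 FPKM Htr4 was not compared.

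Htr7, whose product has a known part in setting the daily clock of the hypothalamus, read 6.08, 8.60, 5.82 and 6.51 FPKM in hippocampus, and in hypothalamus it read 12.2, 10.2 and 12.2 FPKM. The groups did not overlap, and the FPKM mean was 1.71 times as high in hypothalamus. After rescaling the difference was −0.46 with a pooled SD of 0.19 on the log2 scale, and the groups stayed apart in all 17 other settings. Markers of thalamus and habenula, neighbouring parts of the diencephalon, were also measured. Of 4 compared, Lef1 and Tcf7l2 were called higher in hypothalamus, where 13.4% of all compared symbols were, and 2 overlapped. Prkcd, the most abundant, read 8.27 to 31.5 FPKM in hypothalamus and 13.2 to 27.7 FPKM in hippocampus. The summed level of all 6 markers was highest in hypothalamus replicate 1, at 73.2 FPKM, where the other hypothalamus libraries read 41.9 and 34.8 FPKM and the hippocampus libraries 28.2 to 42.5 FPKM, with no marker at 0 throughout a tissue. Their part in the Htr7 difference was not tested, and Htr7 read 12.2 FPKM in both replicates 1 and 3 of hypothalamus. The Htr7 sequence before the gene start is shown as that of the second most abundant receptor gene in hypothalamus, and with a GC content of 80.8% it held none of the 4 motifs.
Htr7, chr1:243173049-243173298, minus strand: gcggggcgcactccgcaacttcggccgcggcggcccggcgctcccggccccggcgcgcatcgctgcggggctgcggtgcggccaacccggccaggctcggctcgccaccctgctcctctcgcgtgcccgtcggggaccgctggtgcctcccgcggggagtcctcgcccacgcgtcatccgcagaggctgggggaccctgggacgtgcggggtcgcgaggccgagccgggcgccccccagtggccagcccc

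Because a scale factor of a library cancels in a ratio, the receptors were also expressed as a share of the FPKM summed over the 10. With loci summed, Htr2c took 39.9% ± 8.51 (SD, n = 4) of the receptor total in hippocampus and 40.3% ± 8.60 (SD, n = 3) in hypothalamus. Htr1a took 21.4% ± 4.54 in hippocampus and 8.60% ± 2.08 in hypothalamus, and Htr1b 18.8% ± 1.88 and 10.4% ± 2.61. Neither overlapped between the tissues. At its higher locus alone the share of Htr1b did overlap, at 4.30% to 20.7% in hippocampus and 6.24% to 7.65% in hypothalamus. Htr7 took 7.24% ± 1.98 in hippocampus and 16.8% ± 2.29 in hypothalamus, and Htr3a 3.44% ± 0.817 and 9.92% ± 1.16, again without overlap. The 5 receptors coupled to inhibitory G proteins together held 37.4% to 49.0% of the total in hippocampus libraries and 18.6% to 28.9% in hypothalamus libraries. Within that class Htr1d and Htr5a went the other way, with higher shares in every hypothalamus library. The shares of the receptors that stimulate adenylate cyclase also divided: that of Htr4 was higher in every hippocampus library, at 2.89% ± 0.808 against 1.66% ± 0.478, while that of Htr7 was higher in hypothalamus. The summed total itself overlapped, with 77.1 to 117 FPKM in hippocampus libraries and 61.5 to 84.0 FPKM in those of hypothalamus. A share falls when another receptor takes more, so the shares are not independent of each other.

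**Figure D5:**
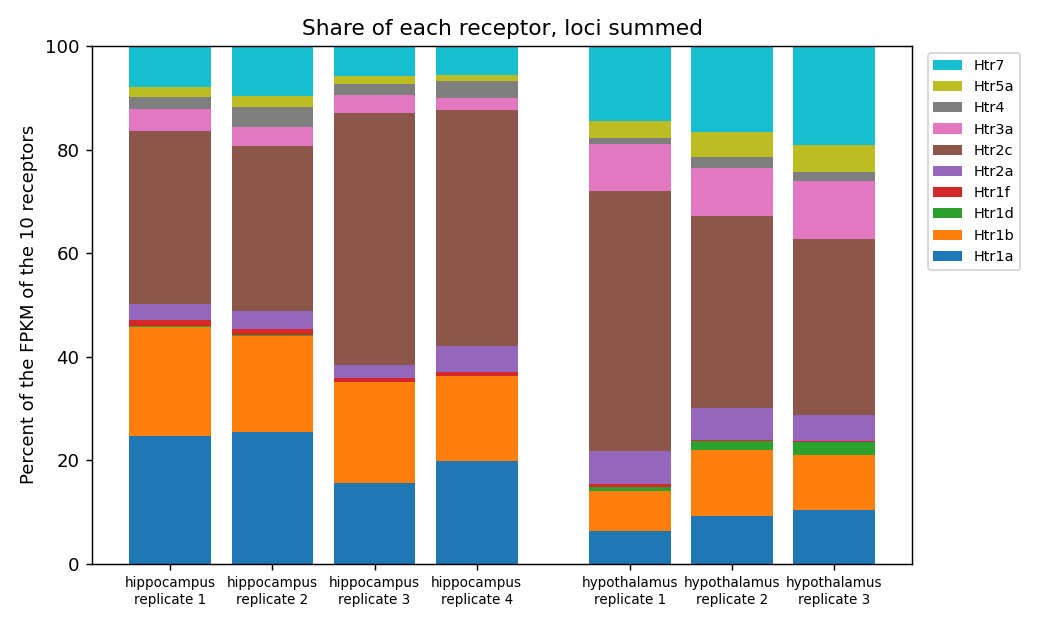
Share of each receptor in the FPKM summed over the 10 receptor genes (percent, stacked bars from 0 to 100), 1 bar per library, with the loci of a symbol summed. Htr1a and Htr1b take a larger part of every hippocampus bar, and Htr7 and Htr3a of every hypothalamus bar.

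Among replicates, the median SD of log2(FPKM + 1) was 0.31 over the 8 receptors that averaged 1 FPKM or more in hippocampus, beside 0.24 over the 11197 loci at that level. In hypothalamus it was 0.18 over 9 receptors, beside 0.25 over 11483 loci. Over all 10 receptors the medians were 0.23 in hippocampus and 0.17 in hypothalamus, and with loci summed they were 0.18 and 0.15. In hippocampus the SD was largest for the higher locus of Htr1b (0.71), then for Htr2c (0.53) and Htr2a (0.48), and in hypothalamus for Htr2c (0.52). It was smallest for Htr5a, at 0.06 and 0.09, where loci between 0.5 and 2 times its level had medians of 0.25 and 0.26.

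At the highest-mean locus, Htr1a, Htr1d and Htr4 were the 3 receptors with the largest difference between the tissues. With loci summed, Htr1b (1.54) differed more than Htr1d (−1.40) and Htr4 (1.23). For each of the 3, the symbols with the smallest mean absolute difference from it in log2(rescaled value + 1) over the 7 libraries were listed. For Htr1a these were Hivep2 (0.13), Slc36a1 (0.15) and Zfp385b (0.15). Hivep2, a zinc finger gene, averaged 21.8 ± 2.59 FPKM over the 4 hippocampus libraries and 6.15 ± 0.244 FPKM over the 3 of hypothalamus. For Htr1d they were Plscr5 (0.18), Cpa4 (0.19) and Barhl1 (0.20), and for Htr4 they were Sytl5 (0.20), Kif26b (0.20) and Socs4 (0.20). The measure takes in level as well as shape.

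Of the 4 serotonin receptor genes outside the 10, Htr5b alone had a mean above 1 FPKM. Htr5b passed that minimum only through hippocampus, the tissue where it was high, so its difference is given as a description. Its higher hippocampal locus read 4.799, 3.49, 4.46 and 4.28 FPKM, and its single hypothalamic locus read 0.228, 0.255 and 0.144 FPKM. This was 24.9 times as high in hippocampus after rescaling, a difference of 3.15 with a pooled SD of 0.18 on the log2 scale, more than that of any of the 10. The ratio rests on hypothalamic values under 1 FPKM, whose precision is not known. A second hippocampal locus among loci of the other strand read 1.09 to 1.74 FPKM. Htr6 read 0.771 to 1.17 FPKM in hippocampus, and in hypothalamus it read 0.552 to 1.013 FPKM, Htr2b at most 0.0612 FPKM in any library, and Htr3b, the partner subunit of Htr3a, was listed at 0 in all 7.

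Of 11 listed genes for making, storing and clearing serotonin, 8 were compared, 5 were called higher in hypothalamus (13.4% of all compared symbols) and 1 in hippocampus (14.5%). Slc18a2, Gch1, Slc22a3 and Tph2 passed the minimum of 1 FPKM only through the tissue where they were high, so they had to differ, and the count is a description. The 5 were Slc18a2, the vesicular monoamine transporter, at 11.1 ± 1.46 against 0.585 ± 0.402 FPKM, Gch1, which makes the cofactor of monoamine synthesis, at 3.81 ± 0.885 against 0.470 ± 0.131 FPKM, Ddc, the aromatic amino acid decarboxylase, at 7.37 ± 0.396 against 2.28 ± 0.576 FPKM, and the transporter genes Slc29a4 and Slc22a3, at 22.0 ± 6.02 against 8.09 ± 1.87 FPKM and 1.44 ± 0.390 against 0.236 ± 0.0672 FPKM (hypothalamus first, SD, n = 3 and n = 4). These genes also serve dopamine and other amines. Among listed genes known from serotonin neurons, Slc6a4 and Fev averaged under 1 FPKM in both tissues, and Tph2 did so in hypothalamus only. Slc6a4, the serotonin transporter, averaged 0.0227 FPKM over the hippocampus libraries and 0.125 FPKM over those of hypothalamus, and was higher in every hypothalamus library. Fev, a raphe transcription factor, was listed at 0 in 6 of 7 libraries. Tph2, the neuronal tryptophan hydroxylase, was called higher in hippocampus at 1.29 ± 0.380 against 0.507 ± 0.175 FPKM, and Tph1 averaged 0.0664 FPKM in hippocampus, and in hypothalamus it averaged 0.0993 FPKM. Maob, which breaks down amines, was higher in every hypothalamus library at less than 2-fold (53.8 ± 0.918 against 33.2 ± 3.68 FPKM), and Maoa overlapped at 26.1 ± 8.83 against 30.6 ± 4.25 FPKM.

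Of 23 listed G protein and effector genes of these receptors, 19 had usable values in both tissues, and all 19 were compared. Gnai3, Gnao1, Adcy2 and Adcy3 were not found among the usable symbols of both tissues, so nothing is said of their levels. Among the 19, 12 were called (27.9% of all compared symbols), of which 8 towards hippocampus (14.5%) and 4 towards hypothalamus (13.4%). The median difference was 0.95 on the log2 scale, beside 0.05 over all compared symbols. The called genes with the largest difference towards hippocampus were Adcy9, Kcnj5 and Kcnj3. Adcy9, an adenylate cyclase, stood at 26.9 ± 2.27 against 1.04 ± 0.0466 FPKM. Kcnj5 and Kcnj3, subunit genes of potassium channels gated by G proteins, stood at 38.5 ± 3.23 against 2.87 ± 0.423 FPKM and 30.2 ± 3.84 against 9.62 ± 1.11 FPKM. The called genes with the largest difference towards hypothalamus were Gnal, Gnas and Gnai2. Gnal and Gnas, stimulatory G protein genes, stood at 58.4 ± 7.501 against 7.20 ± 0.777 FPKM and 4223 ± 918 against 695 ± 69.6 FPKM. Gnai2, an inhibitory one, stood at 408 ± 141 against 124 ± 24.5 FPKM. Kcnj3, Kcnj5 and Gnas had several loci in hippocampus. Adcy1, with 2 loci there, overlapped and was not called. Its higher locus read 0 FPKM in hippocampus replicate 1 and 102.8, 59.4 and 100.6 FPKM in replicates 2 to 4. In hypothalamus it read 3.83 to 6.17 FPKM. Of 13 receptor partner and regulator genes, 3 were called higher in hippocampus and 2 in hypothalamus, where 14.5% and 13.4% of all compared symbols were. Ric3, a chaperone of the Htr3a channel, stood at 15.6 ± 6.41 FPKM in hippocampus against 4.57 ± 1.53 FPKM, and Dlg4, a synaptic scaffold gene, at 236 ± 39.3 against 127 ± 34.7 FPKM. Cc2d1b, which belongs to a gene family of Htr1a repressors, stood at 15.6 ± 0.910 against 8.87 ± 1.81 FPKM. Cc2d1a, of the same family, went the other way, at 11.9 ± 3.59 FPKM in hippocampus against 29.6 ± 10.2 FPKM, but overlapped after rescaling. S100a10, whose product binds the Htr1b and Htr4 receptors, stood at 12.7 ± 4.13 FPKM in hippocampus against 58.6 ± 14.4 FPKM, and Tmem35a (listed as Tmem35), a chaperone gene of ligand-gated channels, 35.3 ± 7.24 and 103 ± 6.58 FPKM.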

How the data were processed

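The deposited unit is FPKM from the authors, in a separate table for each tissue, every value with a status word per the file headers. The submitters' processing notes name TopHat, TopHat2, Bowtie, Bowtie2, Cufflinks and Cuffdiff and the build rn5, without versions or roles. The annotation, the strand setting and how library size entered the FPKM are not given in the sources used here. Libraries were made from fragmented mRNA after poly-A selection, per the labels' protocols.

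A locus was dropped where any library's status was not OK (86 in hippocampus, 24 in hypothalamus), and no receptor locus was among them. Values were joined across tables by symbol. Compared symbols averaged 1 FPKM or more in either tissue, and the pseudocount was 1. Each table holds a single group, so no test was made and no p-value is given. Replicates are separate samples per the labels, which do not say that they are separate animals, so the SD covers the spread of these samples only. The calling rule was tried on simulated data with planted shifts, drawn for both tissues from the means and SDs of hippocampus. That simulation held no offset between tables and no split loci, so it cannot speak to either. Python 3.11.15 with numpy 2.4.6 and pandas 2.3.3 was used.

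The number of reads per library is unknown. From the spacing of values under 0.1 FPKM, the step of hippocampus replicate 2 was 1.52 times that of replicate 3 (at 20.4% of 450 low loci), and pairs with a replicate 1 gave no common ratio (at most 2.75% of loci). Alternatives covered pseudocount, scaling, summed loci, filters and left-out libraries.

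The members, gene lists and rules were chosen with earlier results of these data known. Named were the receptors, every gene of the lists of other receptors and of serotonin synthesis and clearance, up to 3 called genes with the largest difference in each direction of the effector and partner lists, the most abundant gene of each marker list, and the 3 nearest symbols for the 3 receptors with the largest difference. Mir3552, Mir764, Mir1912, Mir448, Otx2, Lef1, Tcf7l2, Vip, Sp8, Pomc, Oxt, Otp, Adcy1 and Cc2d1a were named after their values were seen. Gnai3, Gnao1, Adcy2 and Adcy3 were named only as not found. RefSeq names and sequences are of assembly GRCr8, and no coordinates of it were used for the deposited loci.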

Additional observations from a re-analysis of the deposited data

Results flagged for a closer look

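Among 31 results with 4 hippocampus libraries, 1 had a library whose gap to the nearest other, divided by the whole range, passed the 95% limit of 0.829 for 4 samples, and chance gives about 1 in 20. The mean level of the 10 hypothalamus markers in hippocampus was 0.84 log2(FPKM + 1) in replicate 1 and 0.49, 0.51 and 0.49 in replicates 2 to 4, a ratio of 0.944. Pomc, the precursor gene of melanocortins, stood at 5.07 FPKM in replicate 1 against 0.192 to 0.734 FPKM elsewhere, and the summed level of the list was 11.9 FPKM against 5.09 to 5.44 FPKM. Oxt and Otp were listed at 0 in all 4 libraries. No receptor level or share passed the limit.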

How the results depend on the processing

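No paired analysis was possible because the differences come from no test and the labels do not say that same-numbered libraries share an animal. In all 17 alternatives for each receptor, the difference kept its sign except for Htr2a. Htr1a was called in 17 of 17, Htr4 in 12, Htr1d in 11, Htr1b in 6, Htr2c in 3 and Htr1f in 1. Regardless of the filter on low values, Htr4, Htr1d and Htr1f met the fold and overlap criteria in 13 each. Receptors called higher in hippocampus numbered 2 with the main settings. They numbered 1 with a pseudocount of 5, with FPKM as deposited, with upper-quartile or median-ratio scaling and with a minimum of 5 FPKM, and 4 without replicate 1 of either tissue, also with loci summed. Leaving out 1 library at a time gave 2 to 4, and for hypothalamus 0 to 1. Receptors called higher in hypothalamus numbered 0 in place of 1 with a pseudocount of 5, FPKM as deposited, upper-quartile or median-ratio scaling and the minimum of 5 FPKM. The cause of these changes with the scaling was not tested. Without overlap, 2 receptors were higher in hippocampus (1 with the minimum of 5 FPKM, 4 without replicate 1 of either tissue, also with loci summed, 2 to 4 with 1 library left out) and 4 in hypothalamus (2 with that minimum, 3 to 4 with 1 library left out). That minimum left 5 receptors to compare. Genes of the 4 pathway lists called higher in hippocampus numbered 13, and 8 with FPKM as deposited. The share of Htr1b went from 10.9% to 18.8% in hippocampus and from 7.16% to 10.4% in hypothalamus with loci summed. The median SD of the receptors was 0.36 in hippocampus and 0.30 in hypothalamus with a pseudocount of 0.1, and 0.11 in hypothalamus with 5. Without counts, the precision of values under 1 FPKM (Htr1d, Htr1f) is not known. Summing loci while leaving out replicate 1 of either tissue, summing loci for the spread, and leaving out replicate 1 of either tissue for the shares were chosen after seeing the data.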
